A study of Homo sapiens with 6 samples.

Results

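Fibrillar collagens and collagen XII were followed through 6 genes, COL1A1, COL1A2, COL3A1, COL5A1, COL5A2 and COL12A1, out of 67026 genes in the deposited count table. They were taken by gene symbol from the versioned Ensembl identifiers of the table, and all 6 were abundant enough to be tested beside 16248 other genes. RNA was sequenced from xenograft tumours of PC-3, an established line of human prostate carcinoma cells that does not depend on androgen. The shVCAN group held 3 tumours whose cells carried a lentiviral hairpin RNA against VCAN, the gene for the matrix proteoglycan versican. The shGFP group held 3 tumours whose cells carried a hairpin against GFP as the knockdown control. Each tumour here stands for 1 library, and the labels do not tie libraries to mice. Cells of both groups had been selected with puromycin, and were injected under the skin in Matrigel, a basement membrane extract. The hosts were male NSG mice aged 4 to 5 weeks, which carry Prkdc scid and lack Il2rg and so have no T, B or NK cells but keep their own fibroblasts and vessels. Tumour growth was followed for 4 weeks. The label of each group names 1 hairpin target and no second hairpin, so an effect of the hairpin sequence and of the loss of VCAN cannot be told apart.

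Fibrillar collagens are made as procollagen chains that wind into a long rope-like helix in the endoplasmic reticulum, are trimmed outside the cell and pack into fibrils. Type I collagen, built of COL1A1 and COL1A2 chains with the COL1A1 chain in the majority, is the main fibril of connective tissue, and helices of COL1A1 chains only are also known. Type III, built of COL3A1 chains, lies in the same fibrils in soft tissues. Type V, built mainly of COL5A1 and COL5A2 chains, starts fibrils and limits their width. Collagen XII, built of COL12A1 chains, forms no fibril itself and binds to the surface of type I fibrils. In prostate and other solid tumours these collagens are known mostly as products of fibroblasts, although carcinoma cells with mesenchymal features also make them.

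The helix is written in the coding sequence as a repeat in which a GGN codon for glycine is followed each time by 2 further codons. The first 12 units of the longest such run, each of 9 bases, are shown for the chain pairs whose ratio is compared further on and for COL12A1. They are coding sequence with the introns removed, 5′ to 3′ on the gene's own strand, from the GENCODE 29 transcripts on GRCh38, and the capitals mark the GGN codon that opens each unit. COL1A1 lies on the minus strand, and its segment begins at codon 179 and spans 3 exons within chr17:50197949-50198441. The COL1A2 segment begins at codon 91, on the plus strand within chr7:94401612-94404746. For the type V chains, the segment of COL5A1 lies on the plus strand within chr9:134752601-134754281 and that of COL5A2 on the minus strand within chr2:189085719-189088703. The COL12A1 segment lies on the minus strand within chr6:75101609-75102605.
COL1A1: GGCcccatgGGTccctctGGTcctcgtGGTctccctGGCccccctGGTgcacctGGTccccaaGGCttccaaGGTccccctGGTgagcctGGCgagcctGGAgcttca
COL1A2: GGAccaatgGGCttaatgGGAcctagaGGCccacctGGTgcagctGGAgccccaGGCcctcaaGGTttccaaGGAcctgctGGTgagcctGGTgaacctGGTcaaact
COL5A1: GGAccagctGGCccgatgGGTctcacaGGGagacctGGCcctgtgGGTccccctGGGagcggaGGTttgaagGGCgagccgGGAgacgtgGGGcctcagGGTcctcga
COL5A2: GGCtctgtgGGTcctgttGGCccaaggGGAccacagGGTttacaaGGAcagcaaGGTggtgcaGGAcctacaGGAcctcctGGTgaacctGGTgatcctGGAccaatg
COL12A1: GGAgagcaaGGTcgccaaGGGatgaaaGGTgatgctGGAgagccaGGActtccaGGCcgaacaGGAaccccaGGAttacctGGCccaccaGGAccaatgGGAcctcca

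The 5 fibrillar chains share 1 long uninterrupted run of these units. It holds 338 units in COL1A1 and COL5A1, 339 in COL1A2 and COL5A2, and 342 in COL3A1. In COL12A1 the longest run holds 32 units, and runs of at least 5 units cover 8.13% of its 3063 codons, against 58.8% in COL5A1 to 77.7% in COL1A2 among the others. Despite the common repeat, the chains can be told apart by their letters: over the 108 bases shown, COL1A1 and COL1A2 match at 72, or 66.7%. No stretch of 31 bases is shared between the principal transcripts of any of the 6 genes. COL1A1 shares 4 of its 6697 such stretches with COL2A1, another fibrillar chain, and COL1A2 shares 5 of 5381 with the same gene, while the other 4 share none with any annotated gene. COL3A1 and COL5A2 are neighbours on chromosome 2, on opposite strands and 19149 bases apart. Their exons do not overlap, and the overlap of an exon of a listed collagen with another gene is 1 base, between COL3A1 and MIR3606.

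**Figure D1:**
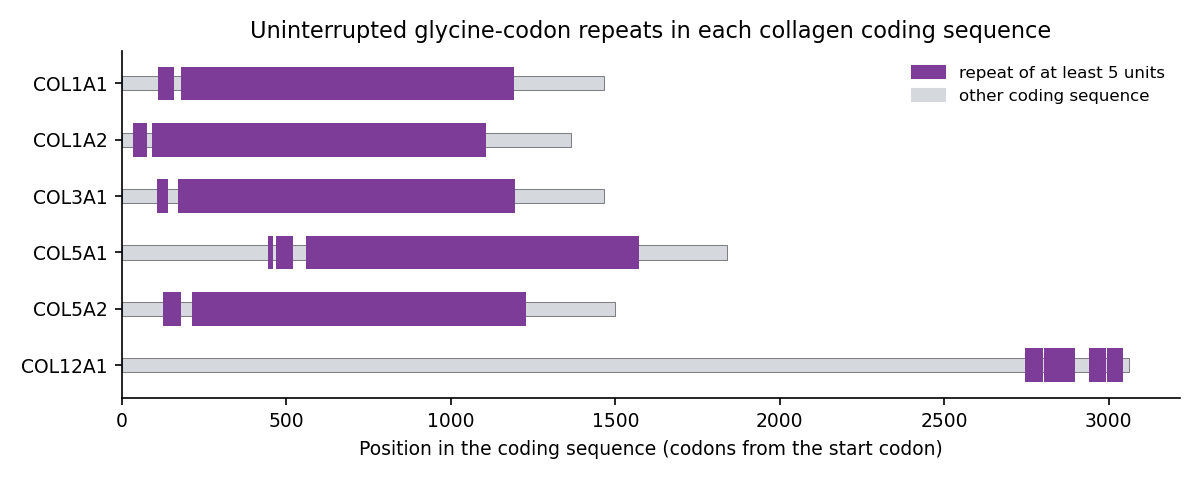
Map of glycine-codon repeats along the coding sequence of each collagen, in codons from the start codon. Purple blocks are uninterrupted repeats of at least 5 units and grey is the remaining coding sequence; the 5 fibrillar chains each hold a block of 338 to 342 units, while COL12A1 has shorter blocks, up to 32 units, near its end.

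Libraries held 12959840 to 13327617 counts in shVCAN tumours and 11253058 to 12936539 in shGFP tumours. VCAN had 69, 39 and 44 counts in shVCAN tumours, against 133, 104 and 121 in shGFP tumours, and fell by 1.54 on the log2 scale (SE 0.21, adjusted p = 4.59e-07). The groups also differed in RNA makeup: mitochondrial messenger RNAs took 6.39 to 7.63% of counts in shVCAN tumours and 13.3 to 16.2% in shGFP tumours. Keratins of the carcinoma cells were abundant, with KRT18 at 3880 to 4051 counts in shVCAN tumours and 4491 to 4836 in shGFP tumours, while the prostate androgen targets KLK3 and KLK2 were at 0 in every tumour. As a scale for the marker counts below, 21.1% of all genes tested were called lower and 19.2% higher at an adjusted p under 0.05. Of 18 markers of fibroblasts and pericytes, none of them a collagen studied here, 12 were tested, 3 fell (PDGFRA, FAP and CSPG4) and 2 rose (RGS5 and NOTCH3). The summed level of that list was 152 to 161 CPM (the read count relative to library size after adjustment by TMM, a trimmed mean of log ratios between libraries) in shVCAN tumours and 167 to 182 CPM in shGFP tumours. THY1 and TCF21 were at 0 in every tumour, and DCN, a defining fibroblast gene, was at 0 in the 3 shVCAN tumours and had 0 to 5 counts in shGFP tumours. Other markers of that list were clearly detected. PDGFRA had 612 to 679 counts in shVCAN tumours and 616 to 692 in shGFP tumours, and CSPG4 400 to 489 and 444 to 494. FAP had 118 to 150 and 218 to 311, a fall of 1.19 on the log2 scale. RGS5 had 367 to 487 and 234 to 252, and NOTCH3 126 to 163 and 75 to 83. Endothelial markers summed to 112 to 126 CPM in shVCAN tumours and 172 to 180 CPM in shGFP tumours, with 5 of 6 tested falling. Skeletal muscle markers summed to 173 to 258 CPM in shVCAN tumours and 212 to 377 CPM in shGFP tumours, with overlapping groups, 5 of 7 tested falling and TNNT3 at 0. Of 10 macrophage markers 5 were tested and 1 fell, with AIF1 and C1QA at 0 and sums of 5.30 to 7.30 CPM in shVCAN tumours and 6.995 to 10.1 CPM in shGFP tumours. Of 6 adipocyte markers 2 were tested and 1 (FABP4) rose, with ADIPOQ and LEP at 0 and sums of 21.0 to 22.9 CPM in shVCAN tumours and 6.88 to 10.5 CPM in shGFP tumours. FABP4 by itself had 17.5 to 19.1 CPM in shVCAN tumours and 3.25 to 5.25 CPM in shGFP tumours. LPL and PLIN1 overlapped between the groups. CIDEC, not tested, was lower, at 2, 0 and 2 counts in shVCAN tumours against 16, 16 and 3 in shGFP tumours. Of 6 epithelial markers 5 fell, with sums of 1281 to 1326 CPM in shVCAN tumours and 1568 to 1774 CPM in shGFP tumours. With mitochondrial genes left out of the library sizes, log2 fold changes were −1.04 for COL1A1, −2.37 for COL1A2 and −1.44 for COL3A1. They were −0.20 for COL5A1, −0.91 for COL5A2 and −0.56 for COL12A1, and no call of these changed. Beyond this scaling, the part of the mitochondrial share in the collagen results was not tested, nor was that of these markers. No source used here says whether reads of mouse origin were removed before counting.

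Transcripts of the fibrillar collagens and collagen XII were lower in shVCAN tumours, least of all COL5A1, whose call depended on the processing and whose sign turned under an offset for length and GC content of exons. Among the type I chains COL1A2 was lower by far more than COL1A1. COL1A1 on chromosome 17 had 3805, 5056 and 3680 counts in shVCAN tumours 1, 2 and 3, against 7944, 6495 and 6475 in shGFP tumours. The second shVCAN tumour was the highest of its group and still lay below every shGFP tumour. With TMM scaling, COL1A1 averaged 300.5 ± 48.9 CPM in shVCAN tumours and 619 ± 37.5 CPM in shGFP tumours (SD, n = 3 each). It fell by 1.04 on the log2 scale (SE 0.07, 95% interval −1.18 to −0.91), with an adjusted p of 2.26e-13 by edgeR's quasi-likelihood test with Benjamini-Hochberg adjustment over all genes tested. In bulk tumours, fewer cells that make a transcript and less of it per cell cannot be told apart.

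COL1A2, the partner chain, on chromosome 7, had 199, 233 and 150 counts in shVCAN tumours, against 1010, 705 and 729 in shGFP tumours. The highest shVCAN tumour held fewer than the lowest shGFP tumour by a wide margin. The level was 14.4, 16.4 and 10.95 CPM in shVCAN tumours and 84.1, 65.5 and 66.6 CPM in shGFP tumours, so the shVCAN mean was 0.194 of the shGFP mean. COL1A2 fell by 2.37 on the log2 scale (SE 0.11, 95% interval −2.59 to −2.15, adjusted p = 1.32e-16, edgeR). Among the 11944 tested genes that reached a mean of 5 CPM in at least 1 group, 13 had a lower log2 fold change than COL1A2 and 205 a lower one than COL1A1.

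COL3A1, the chain of type III collagen, on chromosome 2, lay between the type I chains in the size of its change. It had 420, 477 and 340 counts in shVCAN tumours, against 1072, 809 and 834 in shGFP tumours. As for type I, shVCAN tumour 3 was the lowest of its group and shGFP tumour 1 the highest of the other, with no overlap. COL3A1 averaged 29.7 ± 4.48 CPM in shVCAN tumours and 80.2 ± 7.87 CPM in shGFP tumours (SD, n = 3 each) and fell by 1.44 on the log2 scale (SE 0.09, 95% interval −1.62 to −1.26, adjusted p = 1.18e-13, edgeR).

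The type V chains did not move alike. COL5A2, on chromosome 2, had 767, 800 and 766 counts in shVCAN tumours, against 1284, 1060 and 1200 in shGFP tumours. The shVCAN tumours were close to each other, at 55.7, 56.4 and 55.9 CPM, and well under the shGFP tumours at 107, 98.5 and 109.6 CPM. COL5A2 fell by 0.91 on the log2 scale (SE 0.07, 95% interval −1.04 to −0.78, adjusted p = 2.54e-12, edgeR).

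COL5A1, the chain that starts fibrils, on chromosome 9, had 1782, 2013 and 1650 counts in shVCAN tumours, against 1855, 1570 and 1636 in shGFP tumours. These raw counts overlapped between the groups. With TMM scaling they did not, at 129, 142 and 120.4 CPM in shVCAN tumours and 154, 146 and 149 CPM in shGFP tumours. Scaled to the library total only, they overlapped again, at 137.5, 151 and 125.6 CPM in shVCAN tumours and 143.4, 139.5 and 140.6 CPM in shGFP tumours. COL5A1 fell by 0.20 on the log2 scale (SE 0.06, 95% interval −0.32 to −0.08, adjusted p = 0.0097, edgeR), but this call did not hold under every way of processing. With library size as the only scaling the log2 fold change was −0.032 (adjusted p = 0.729), and with an offset for length and GC content of exons it was 0.044, of the opposite sign (adjusted p = 0.539). The adjusted p was 0.0891 without shVCAN tumour 3 and 0.0665 without shGFP tumour 1.

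COL12A1, on chromosome 6, had 2438, 2428 and 2538 counts in shVCAN tumours, against 3161, 2842 and 2807 in shGFP tumours. The tumours of each group were close together and the groups did not overlap. The level was 177.8 ± 6.98 CPM in shVCAN tumours and 261 ± 4.22 CPM in shGFP tumours (SD, n = 3 each). COL12A1 fell by 0.55 on the log2 scale (SE 0.05, 95% interval −0.66 to −0.45, adjusted p = 4.57e-10, edgeR).

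**Figure D2:**
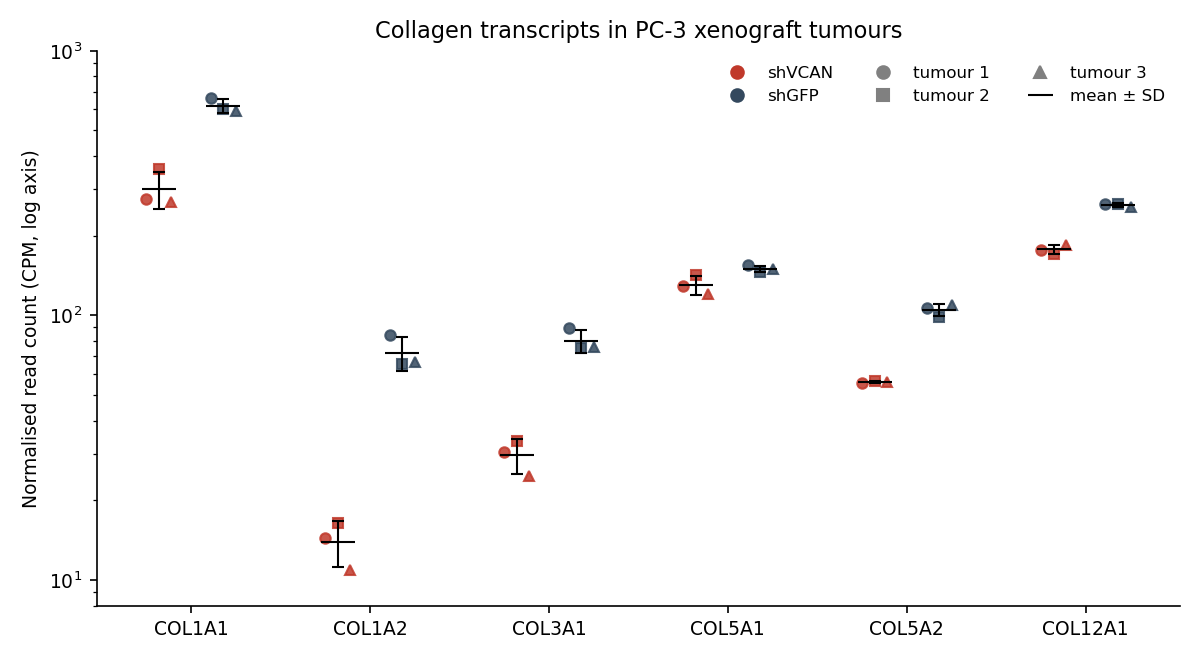
Normalised read counts (CPM, log axis) of the 6 collagen genes in each tumour, with shVCAN tumours in red to the left of shGFP tumours in blue; the marker shape gives the tumour number and the bars the mean ± SD of 3 tumours. The distance between groups is widest for COL1A2 and narrowest for COL5A1, at 120.4 to 142 CPM in shVCAN tumours and 146 to 154 CPM in shGFP tumours; for COL5A1 the sign turned under an offset for length and GC content of exons.

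All 6 genes were called lower at an adjusted p under 0.05 and none higher, with COL5A1 lower in the reported scaling but not under the offset for length and GC content of exons. Over all genes tested, 21.1% were called lower and 19.2% higher, so a call in itself was common in this comparison. Of all calls, 47.7% were higher, and 73.4% with library size as the only scaling, which moved the median log2 fold change of all genes to 0.17. On TMM-scaled CPM the groups did not overlap, with shVCAN lower, for all 6 collagens and for 24.8% of genes tested, but COL5A1 overlapped on raw counts and when scaled to the library total only. COL1A1, COL1A2 and COL3A1 were both called and at least 2-fold lower, as were 2.68% of genes tested. The median log2 fold change of the 6 collagens was −0.97, beside 0.00 over all genes tested. Over all genes tested, log2 fold change correlated with exonic length at −0.23 (Spearman), and the 6 collagens have 6811 to 12481 exonic bases. Under the offset for length and GC content of exons their values were −0.82 (COL1A1), −2.14 (COL1A2), −1.29 (COL3A1), 0.044 (COL5A1), −0.78 (COL5A2) and −0.39 (COL12A1).

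Together the 6 genes took 683, 777 and 666 CPM in shVCAN tumours, against 1359, 1253 and 1249 CPM in shGFP tumours. The sum was 0.550 of the shGFP mean, and the groups did not overlap. With 3 tumours against 3, the exact two-sided permutation test gave p = 0.1, the smallest it can give. The makeup of that sum differed too. COL1A2 supplied 1.96 ± 0.27% of it in shVCAN tumours and 5.58 ± 0.53% in shGFP tumours. COL5A1 supplied 18.4 ± 0.44% in shVCAN tumours and 11.7 ± 0.30% in shGFP tumours. COL1A1 remained the largest contributor in every tumour, at 40.3 to 45.9% in shVCAN tumours and 47.3 to 48.7% in shGFP tumours.

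Ratios between chains were computed within each tumour, where library scaling cancels out. For the type I chains, there were 19.1, 21.7 and 24.5 counts of COL1A1 per count of COL1A2 in shVCAN tumours, against 7.87, 9.21 and 8.88 in shGFP tumours. The mean ratio was thus 21.8 ± 2.71 in shVCAN tumours and 8.65 ± 0.70 in shGFP tumours (SD, n = 3 each), a log2 difference of 1.33. Per base of the principal transcripts, of 6727 bases for COL1A1 and 5411 for COL1A2, the mean ratio was 17.5 in shVCAN tumours and 6.96 in shGFP tumours. The type I ratio differed more between the groups than the other 4 ratios computed.

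For the type V chains, the count ratio of COL5A1 to COL5A2 was 2.32, 2.52 and 2.15 in shVCAN tumours, against 1.45, 1.48 and 1.36 in shGFP tumours. The ratio of COL3A1 to COL1A2 was 2.11, 2.05 and 2.27 in shVCAN tumours, against 1.06, 1.15 and 1.14 in shGFP tumours. COL3A1 counts were above those of COL1A2 in every tumour, by more in each shVCAN tumour than in any shGFP tumour. The ratio of COL3A1 to COL1A1 was lower, at 0.0990 ± 0.0099 in shVCAN tumours and 0.129 ± 0.005 in shGFP tumours (SD, n = 3 each). COL12A1 per COL1A1 was higher, at 0.641, 0.480 and 0.690 in shVCAN tumours, against 0.398, 0.438 and 0.434 in shGFP tumours. None of the 5 ratios overlapped between the groups, and each gave p = 0.1 in the exact two-sided permutation test, the smallest that 3 tumours against 3 allow, and 0.1 after adjustment over the 5 ratios.

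**Figure D3:**
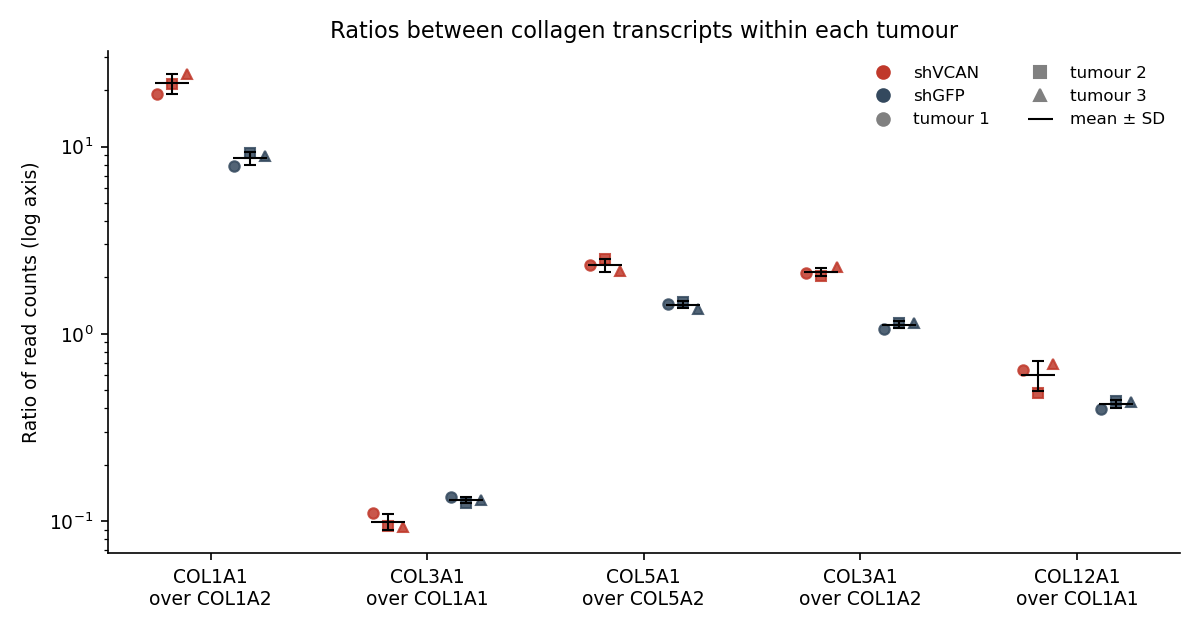
Ratios of read counts between pairs of collagen genes within each tumour (log axis), shVCAN in red to the left of shGFP in blue, with the mean ± SD of 3 tumours. COL1A1 over COL1A2 was 19.1 to 24.5 in shVCAN tumours and 7.87 to 9.21 in shGFP tumours, and COL3A1 over COL1A1 is the ratio of the 5 that was lower in shVCAN tumours.

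Levels of different genes were compared per length, in CPM per kilobase of the principal transcript. COL1A1 was highest in both groups, at 44.7 ± 7.27 in shVCAN tumours and 92.0 ± 5.57 in shGFP tumours (SD, n = 3 each). In shVCAN tumours COL5A1 (15.4 ± 1.28) and COL12A1 (15.2 ± 0.60) came next and did not differ beyond their spread. They were followed by COL5A2 at 7.91 ± 0.06, COL3A1 at 5.35 ± 0.81 and COL1A2 at 2.58 ± 0.51, each apart from its neighbour. In shGFP tumours COL12A1 (22.3 ± 0.36) and COL5A1 (17.7 ± 0.51) were apart, whereas COL5A2 (14.8 ± 0.82), COL3A1 (14.5 ± 1.42) and COL1A2 (13.3 ± 1.93) lay within their spread. COL1A1 was highest and COL1A2 lowest on the scale of all annotated exonic bases as well. The near-equal levels in shGFP tumours did not hold on that scale, where COL5A2 had 14.1 ± 0.78, COL3A1 11.8 ± 1.16 and COL1A2 6.46 ± 0.94 in shGFP tumours. There COL5A2 and COL5A1 changed places in shGFP tumours, at 14.1 for COL5A2 and 13.4 for COL5A1, within their spread, and COL12A1 was above COL5A1 in shVCAN tumours, at 14.3 and 11.7.

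As a scale for the counts in the gene lists from here on, 21.1% of all genes tested were called lower and 19.2% higher. Of the 6 other fibrillar collagen genes, 4 were tested, of which 2 fell and none rose, with a median log2 fold change of −0.42. COL2A1, the chain of cartilage type II collagen, averaged 45.8 ± 1.27 CPM in shVCAN tumours and 136 ± 10.98 CPM in shGFP tumours (SD, n = 3 each) and fell by 1.57 on the log2 scale (SE 0.07, adjusted p = 2.07e-17). COL5A3, an alternative type V chain, averaged 50.1 ± 5.45 CPM in shVCAN tumours and 81.1 ± 2.78 CPM in shGFP tumours and fell by 0.69 (SE 0.08, adjusted p = 1.14e-08). COL27A1, named after its values were seen, had a log2 fold change of 0.15 and was not called (adjusted p = 0.0837), and was called higher without shVCAN tumour 1 (0.21), without shVCAN tumour 3 (0.20) and without shGFP tumour 3 (0.20). It was also called higher under the offset for length and GC content of exons (0.41, adjusted p = 1.32e-08), with library size only (0.32), with upper quartile factors (0.19) and with no filter (0.17).

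The fibril-associated collagens, the class of COL12A1, did not fall with it. Of 9 others, 7 were tested, none fell and 4 rose, with a median log2 fold change of 0.51. COL22A1, found at tissue junctions, had 585 ± 11.2 CPM in shVCAN tumours and 475 ± 15.1 CPM in shGFP tumours (SD, n = 3 each) and rose by 0.30 on the log2 scale (SE 0.04, adjusted p = 2.73e-06). COL21A1 rose by 0.63 (SE 0.09, adjusted p = 4.88e-07). COL9A3, a chain of cartilage type IX collagen, had 33.8 ± 1.81 CPM in shVCAN tumours and 14.1 ± 2.26 CPM in shGFP tumours and rose by 1.25 (SE 0.12, adjusted p = 3.23e-10). COL19A1, low and named after its values were seen, rose by 0.85 (adjusted p = 0.0109) and was not called without shVCAN tumour 3 (adjusted p = 0.095). COL9A1, also named after its values were seen, was called lower without shGFP tumour 3, with a log2 fold change of −0.89 beside −0.72 with all tumours (adjusted p = 0.0837). COL9A2, likewise named, was not called (log2 fold change 0.51, adjusted p = 0.0595) but was called higher under 6 alternatives, among them without shVCAN tumour 3 (0.74, adjusted p = 0.00589) and without shGFP tumour 3 (0.67, adjusted p = 0.0274).

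Of 16 matrix proteins that bind or organise fibrils, 8 were tested, 6 fell and 1 rose, with a median log2 fold change of −0.63. FN1, the gene of fibronectin, which guides fibril assembly, averaged 232 ± 4.52 CPM in shVCAN tumours and 367 ± 3.67 CPM in shGFP tumours (SD, n = 3 each) and fell by 0.66 on the log2 scale (SE 0.05, adjusted p = 2.16e-12). SPARC, a collagen-binding glycoprotein, fell by 0.60 (SE 0.05, adjusted p = 4.50e-11), and the small proteoglycan BGN fell by 1.96 (SE 0.25, adjusted p = 1.43e-07). THBS2, a thrombospondin whose loss in mice gives abnormal fibrils, averaged 77.7 ± 4.49 CPM in shVCAN tumours and 30.0 ± 3.36 CPM in shGFP tumours and rose by 1.37 (SE 0.08, adjusted p = 3.93e-14). The low gene COMP, named after its values were seen, passed the low-count filter and was called higher without shVCAN tumour 1 (log2 fold change 1.94) and without shGFP tumour 3 (1.88). FMOD, a small proteoglycan that binds fibrils, had 0.096 ± 0.039 CPM in shVCAN tumours and 0.897 ± 0.217 CPM in shGFP tumours and was not tested, but was called lower under 6 alternatives, 4 of them without 1 tumour (shVCAN 1, 2 or 3 or shGFP 1, adjusted p of 0.00252 to 0.00973). LUM, of the same class, had a log2 fold change of −1.20 and was not called (adjusted p = 0.0567), but was called lower under 4 alternatives, among them without shVCAN tumour 1 (−1.74, adjusted p = 0.0343). Both were named after their values were seen.

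Of 10 genes that trim procollagen, 7 were tested, 1 fell and 4 rose, where 21.1% of all genes tested fell and 19.2% rose. BMP1, the proteinase that removes the carboxyl propeptide, averaged 115.5 ± 7.86 CPM in shVCAN tumours and 178 ± 9.84 CPM in shGFP tumours (SD, n = 3 each) and fell by 0.62 on the log2 scale (SE 0.06, adjusted p = 1.09e-09). ADAMTS14, which removes the amino propeptide, averaged 194.5 ± 12.5 CPM in shVCAN tumours and 94.9 ± 2.75 CPM in shGFP tumours and rose by 1.03 (SE 0.06, adjusted p = 1.12e-14). PCOLCE2, an enhancer of BMP1, rose by 1.27 (SE 0.12, adjusted p = 1.08e-09). The other 2 that rose, TLL1 and TLL2, were under 3 CPM in both groups. TLL1 rose by 1.22 (adjusted p = 0.0296) and lost its call without shVCAN tumour 1 (adjusted p = 0.145), shGFP tumour 2 (0.143) and shGFP tumour 3 (0.0568).

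All 28 genes that fold, modify, cross-link or export procollagen were tested, of which 17 fell and 2 rose, with a median log2 fold change of −0.22. With library size as the only scaling, 10 fell and 5 rose. LOX, LOXL1, P4HA2 and PLOD1 lost their lower call without shVCAN tumour 1, without shGFP tumour 1 and without shGFP tumour 2. LOX also lost it without shVCAN tumour 2, and the others without shVCAN tumour 3 and without shGFP tumour 3. Each of these genes lost it as well with library size only and with no filter. P3H1 was called lower without shGFP tumour 1, and COLGALT2 higher without shGFP tumour 2. These genes were named after their values were seen. LOXL3, a lysyl oxidase of the family that cross-links collagen, averaged 14.7 ± 1.54 CPM in shVCAN tumours and 50.3 ± 2.07 CPM in shGFP tumours (SD, n = 3 each) and fell by 1.78 on the log2 scale (SE 0.10, adjusted p = 4.77e-15). LOXL4 of the same family fell by 0.52 (SE 0.05, adjusted p = 1.53e-09). SERPINH1, the collagen chaperone of the endoplasmic reticulum, averaged 276 ± 9.30 CPM in shVCAN tumours and 383 ± 11.1 CPM in shGFP tumours and fell by 0.47 (SE 0.05, adjusted p = 3.15e-09). COLGALT1, which adds galactose to hydroxylysine, fell by 0.49 (SE 0.05, adjusted p = 1.10e-08). The genes that rose were the prolyl hydroxylase P4HA1, by 0.28 (adjusted p = 7.90e-05), and the lysyl hydroxylase PLOD2, by 0.39 (adjusted p = 1.46e-04), both named after their values were seen, and P4HA1 was not called under the offset for length and GC content of exons (adjusted p = 0.0744).

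Calls among collagen receptors and collagenases went both ways, as did those over all genes tested (21.1% lower and 19.2% higher). Of 10 genes for receptors and uptake, 6 were tested, 2 fell and 3 rose. ITGA10, a collagen-binding integrin chain, averaged 102 ± 2.29 CPM in shVCAN tumours and 188 ± 12.96 CPM in shGFP tumours (SD, n = 3 each) and fell by 0.89 on the log2 scale (SE 0.06, adjusted p = 3.67e-13). MRC2, the receptor that takes up collagen fragments, rose by 0.73 (SE 0.07, adjusted p = 2.23e-09), and ITGA1, another collagen-binding integrin chain, rose by 1.13 (SE 0.19, adjusted p = 1.27e-05). ITGB1, the shared partner of these integrins, rose by 0.14 with overlapping groups (SE 0.05, adjusted p = 0.0113). It lost its call without shVCAN tumour 1 (adjusted p = 0.0589), shVCAN tumour 3 (0.0888) or shGFP tumour 3 (0.0578). The same omissions left 1 receptor called lower, since DDR2, a collagen-activated receptor kinase, then had adjusted p-values of 0.0993, 0.0564 and 0.0626.

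Of 6 genes for fibrillar collagen breakdown, 5 were tested, 1 fell and 2 rose, beside 21.1% and 19.2% of all genes tested. MMP1, the interstitial collagenase, averaged 43.4 ± 1.54 CPM in shVCAN tumours and 22.4 ± 1.20 CPM in shGFP tumours (SD, n = 3 each) and rose by 0.96 on the log2 scale (SE 0.09, adjusted p = 8.63e-10). MMP14, a membrane-bound collagenase, averaged 2223 ± 57.8 CPM in shVCAN tumours and 1949 ± 60.9 CPM in shGFP tumours and rose by 0.19 (SE 0.04, adjusted p = 3.12e-04). MMP2, a gelatinase, fell by 1.34 (SE 0.18, adjusted p = 3.59e-07).

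**Figure D4:**
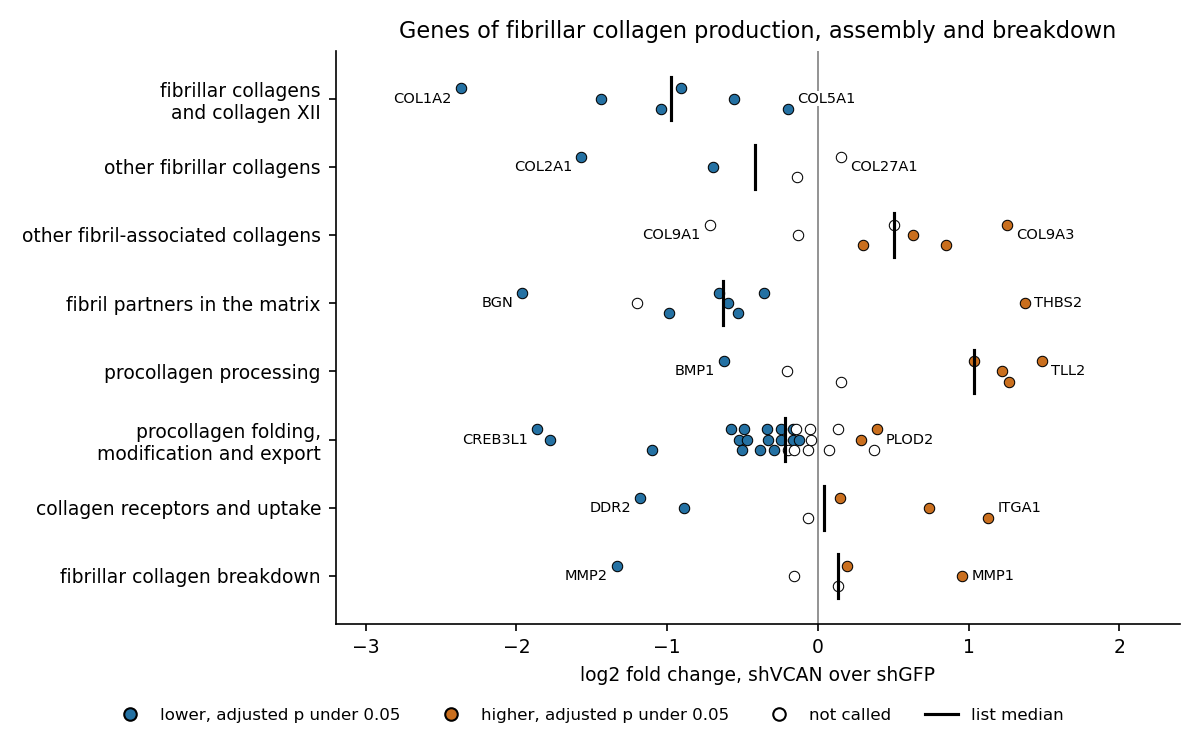
Log2 fold change (shVCAN over shGFP) of every tested gene of the collagen lists, by function; blue points were called lower and orange points higher at an adjusted p under 0.05, white points were not called, bars are list medians, and the gene at each end of a list is named. The 6 collagens lie left of 0, although COL5A1 changed sign under an offset for length and GC content of exons, while the other fibril-associated collagens and the processing genes have medians of 0.51 and 1.03.

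The genes whose pattern over the 6 tumours was most like that of each collagen were found among 11414 genes of at least 5 CPM on average, by the root mean square difference of centred log2 CPM. For COL1A1 they were SMAD7 (0.06) and CARD10 (0.06). For COL1A2 they were APLN (0.22) and THBD (0.23), the widest distances of the 6 collagens. For COL3A1 the nearest was SORCS2 (0.08), and for COL5A1 they were INTS4 and ATG13 (both 0.02). For COL5A2 they were TPP1 and the integrin gene ITGA10 (both 0.03), and for COL12A1 ESYT2 (0.01) and ARHGEF12 (0.02). No collagen gene was among these nearest genes. The distance includes the difference between the groups, so genes of unlike fold change cannot lie near each other, and shared regulation was not tested.

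**Figure D5:**
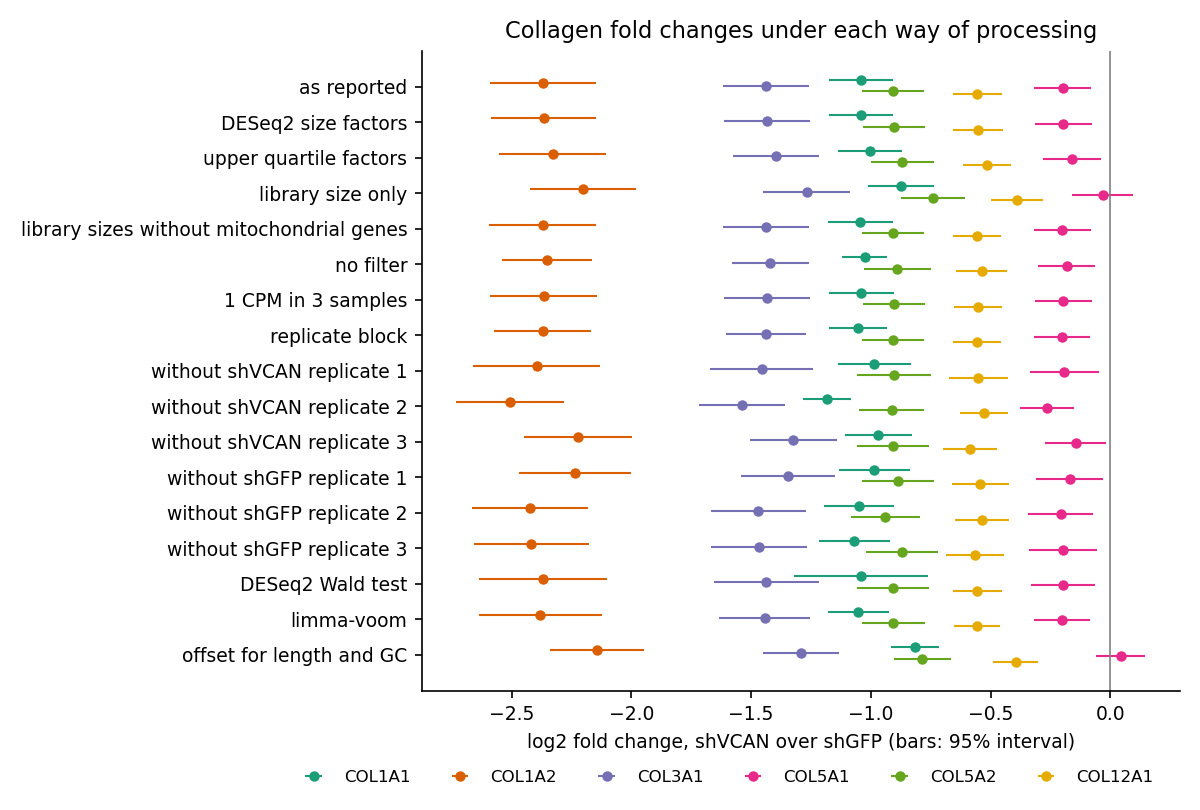
Log2 fold change (shVCAN over shGFP) of the 6 collagen genes as reported and under 16 alternative ways of processing, with bars of the 95% interval (1.96 SE). COL1A1, COL1A2, COL3A1, COL5A2 and COL12A1 stayed below 0 with each alternative, from −2.51 for COL1A2 to −0.39 for COL12A1, while COL5A1 ran from −0.26 to 0.044.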

How the data were processed

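RNA of 3 shVCAN and 3 shGFP tumours was read from both ends, per the labels. The authors deposited raw read counts per gene; the submitters' processing notes name Trim Galore, STAR, DESeq2 and hg38, without versions or roles. No source used here names the counter, its strand setting or its annotation, and antisense reads may be included. A further experimental group named in the growth protocol was not analysed here. Counts were tested with edgeR 4.0.16 (quasi-likelihood, TMM scaling, filterByExpr) in R 4.3.3, a gene being called at a Benjamini-Hochberg adjusted p under 0.05. CPM use TMM library sizes. Alternatives were other scalings and filters, DESeq2 1.42.0, limma-voom (limma 3.58.1), a replicate block, each tumour left out and an offset for length and GC. The edgeR fit was tested on simulated data with few changed genes and no trend with gene length. These data hold many more calls and such a trend, so that test does not bear on the scaling. The 45 second copies of pseudoautosomal genes, all at 0, were dropped. GENCODE 29 (GRCh38, the assembly also called hg38) gave coordinates, lengths and sequences. Members and lists were chosen with earlier results of these data known. List genes were named by smallest p, at most 4 per list, with those outside this rule marked, and the nearest genes needed a symbol; 1 of these is not reported here. Each library counted as 1 replicate. Pairs of libraries of a group differed by more than counting error (chi-square per gene 3.22 to 5.90), which cannot show that they came from separate animals. The labels do not tie libraries to mice, so p-values measure the spread between libraries. In edgeR the common coefficient of variation between libraries of a group, beyond counting error, was 6.63%. Counts are of amplified reads, and counting error does not cover amplification.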

Additional observations from a re-analysis of the deposited data

How the results depend on the processing

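COL1A1, COL1A2, COL3A1, COL5A2 and COL12A1 kept their direction and their call under all 16 alternatives, with log2 fold changes of −1.18 to −0.82, −2.51 to −2.14, −1.54 to −1.27, −0.94 to −0.74 and −0.59 to −0.39 in that order. COL5A1 did not. It was −0.032 with library size only and 0.044 with an offset for length and GC content of exons, and ran from −0.26 to −0.14 when each tumour was left out; the cause was not tested. With library size only, 1890 genes were called lower and 5228 higher, beside 3425 and 3120 as reported, since that scaling moved the median of all genes by 0.17. The replicate numbers did not pair the tumours: deviations of same-numbered tumours correlated at 0.05, 0.03 and −0.07. With a replicate block, the log2 fold change was −1.05 for COL1A1, −2.37 for COL1A2, −1.44 for COL3A1, −0.20 for COL5A1, −0.91 for COL5A2 and −0.56 for COL12A1, and no call of these changed. With each tumour left out, the log2 difference of the COL1A1 to COL1A2 ratio ran from 1.24 to 1.42 and that of the summed level from −0.93 to −0.82. At this depth TLL1, COL19A1 and DDR2 had under 5 CPM on average in each group, and the cause of their lost calls was not tested.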
